A study of Mus musculus with 2 samples.

Results

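The serpins Serpinb11, Serpinb5, Serpina3n and Serpinf1 were read from 379 genes imaged in situ, as every transcript of these 4 genes with a quality score of at least 20. The rule that takes these transcripts uses gene name and score alone. The mock section held 1018 Serpinb11, 50239 Serpinb5, 9995 Serpina3n and 12929 Serpinf1 transcripts among 2461475 gene transcripts. The SspA+HDM section held 14658, 189323, 43081 and 28809 of them, in the same order, among 8124205.

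The study asked where panel genes are expressed in mouse skin after a topical challenge. Dorsal skin of C57BL/6 mice was shaved and depilated and received either PBS (mock) or SspA and HDM on its surface. It was taken on day 7, fixed in formalin, embedded in paraffin and cut into 5-µm sections for Xenium In Situ v1, which counts single RNA molecules by their position in the tissue. The labels expand neither SspA nor HDM, and neither sex nor age is stated in what was used here. Each treatment has 1 sample, laid out as 2 strips of skin that may be neighbouring slices of the same tissue, and strips were not treated as replicates. No test between treatments was therefore possible. Each difference below compares these 2 sections, and every interval is a 95% interval for counting error only.

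Serpins are a family of folded proteins, most of which trap and inactivate a protease that cuts their exposed loop. Clade B serpins lack a classical signal peptide and act mainly inside cells. Serpinb5, also called maspin, is a clade B serpin of epithelia that does not inhibit proteases in the usual way, and Serpinb11 is a less studied clade B member. Serpina3n is a secreted mouse relative of the human inhibitor alpha-1-antichymotrypsin and is known as an acute-phase gene. Serpinf1, or pigment epithelium-derived factor, is a secreted serpin without inhibitory activity that is known for restraining vessel growth.

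Serpinb11 and Serpinb5 lie on the same strand of mouse chromosome 1, and the 6 protein-coding genes annotated between them are all clade B serpins: Serpinb12, Serpinb13, Serpinb3a, Serpinb3d, Serpinb3b and Serpinb3c. Their upstream sequences are shown because the data below set these neighbours apart in skin. RefSeq annotation of GRCm38.p6 places the 250 bases before the Serpinb11 start at chr1:107362064-107362313 (+) and those before the Serpinb5 start at chr1:106860925-106861174 (+). Capitals mark matches to TGANTCA, a loose form of an AP-1 site that allows any base at the centre, read 5′ to 3′. The usual AP-1 letters have C or G at the centre, and each match marked here has A or T. The motif is palindromic, so a match stands on both strands.
Serpinb11: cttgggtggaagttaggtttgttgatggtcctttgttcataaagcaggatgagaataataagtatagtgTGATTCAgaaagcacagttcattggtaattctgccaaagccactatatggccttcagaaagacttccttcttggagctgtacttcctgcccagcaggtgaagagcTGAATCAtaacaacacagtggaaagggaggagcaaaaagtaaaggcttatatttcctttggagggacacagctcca
Serpinb5: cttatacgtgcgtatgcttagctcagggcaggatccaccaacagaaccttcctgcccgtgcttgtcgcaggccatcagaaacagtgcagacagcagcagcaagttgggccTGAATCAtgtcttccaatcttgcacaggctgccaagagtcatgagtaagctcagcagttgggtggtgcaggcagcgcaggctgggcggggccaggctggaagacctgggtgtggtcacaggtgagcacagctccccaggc
Serpinb11 had 2 matches, TGATTCA at bases 70 to 76 and TGAATCA at bases 175 to 181 of the window. Serpinb5 had 1 match, TGAATCA at bases 111 to 117. Serpina3n on chromosome 12 and Serpinf1 on chromosome 11 had 0. Of 32851 promoter windows of this length, 6.75% held the motif. The letters of a STAT site, TTCNNNGAA, were in 7.02% of windows and in none of these 4. The core promoter letters TATAAA, searched on both strands, were in 12.4% of windows and in none of these 4. A match describes letters only.

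In the mock section 94.5% of gene transcripts, and in the SspA+HDM section 97.6%, lay within 15932 and 46142 cell outlines. All outlines of a section held a median of 103 and 121 transcripts each. The 15306 and 44282 cells with at least 20 transcripts were grouped into 24 clusters on 375 genes, leaving these 4 serpins out. Clusters were named from marker lists. Those named keratinocyte-like or hair follicle-like counted as epithelial, and an unnamed cluster did if Trim29, Dsc3 and S100a14 made up at least 8% of its transcripts. Surface clusters 14 and 19 had 2.02% and 6.28% and counted as epithelial by their keratinocyte-like name. They were led by genes of the outer epidermis such as Calm5, Cnfn and Ivl. Unnamed cluster 24, led by muscle genes beside Calm5, Stfa2l1 and Ivl, had 4.71% and counted as non-epithelial. Its 78 cells, all in the SspA+HDM section, held 51 Serpinb11 and 454 Serpinb5 transcripts. The markers bore out skin with epidermis, hair follicle, fat, muscle and vessels. The leading genes of the fibroblast-like cluster included Ms4a7, Pf4 and Cpa3, genes of macrophages and mast cells, beside Lum and Mfap4. Those of the blood endothelium-like cluster included the mural markers Rgs5 and Myh11 beside Vwf and Plvap. Clusters 3, 9, 13, 14, 15, 17 and 19 lay almost wholly in the SspA+HDM section and cluster 5 in the mock section, so each may be that library and not a cell type. An outline can hold transcripts of a neighbour, and no doublet caller was run on these segmented cells. Epithelial cells carried 41.8% of all panel transcripts in the mock section and 61.8% in the SspA+HDM section.

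The clade B serpins lay in epithelial cells and the secreted serpins mostly outside them, in both sections. Epithelial cells held 91.8% and 97.7% of Serpinb11 transcripts, and 96.9% and 97.3% of Serpinb5 transcripts (mock and SspA+HDM). For Serpina3n the epithelial share was 21.1% and 12.03%, and for Serpinf1 4.31% and 8.41%. Cells outside the epithelium held 75.4% and 86.0% of Serpina3n and 89.9% and 89.6% of Serpinf1. The map of transcript positions shows the same split by eye.

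**Figure D1:**
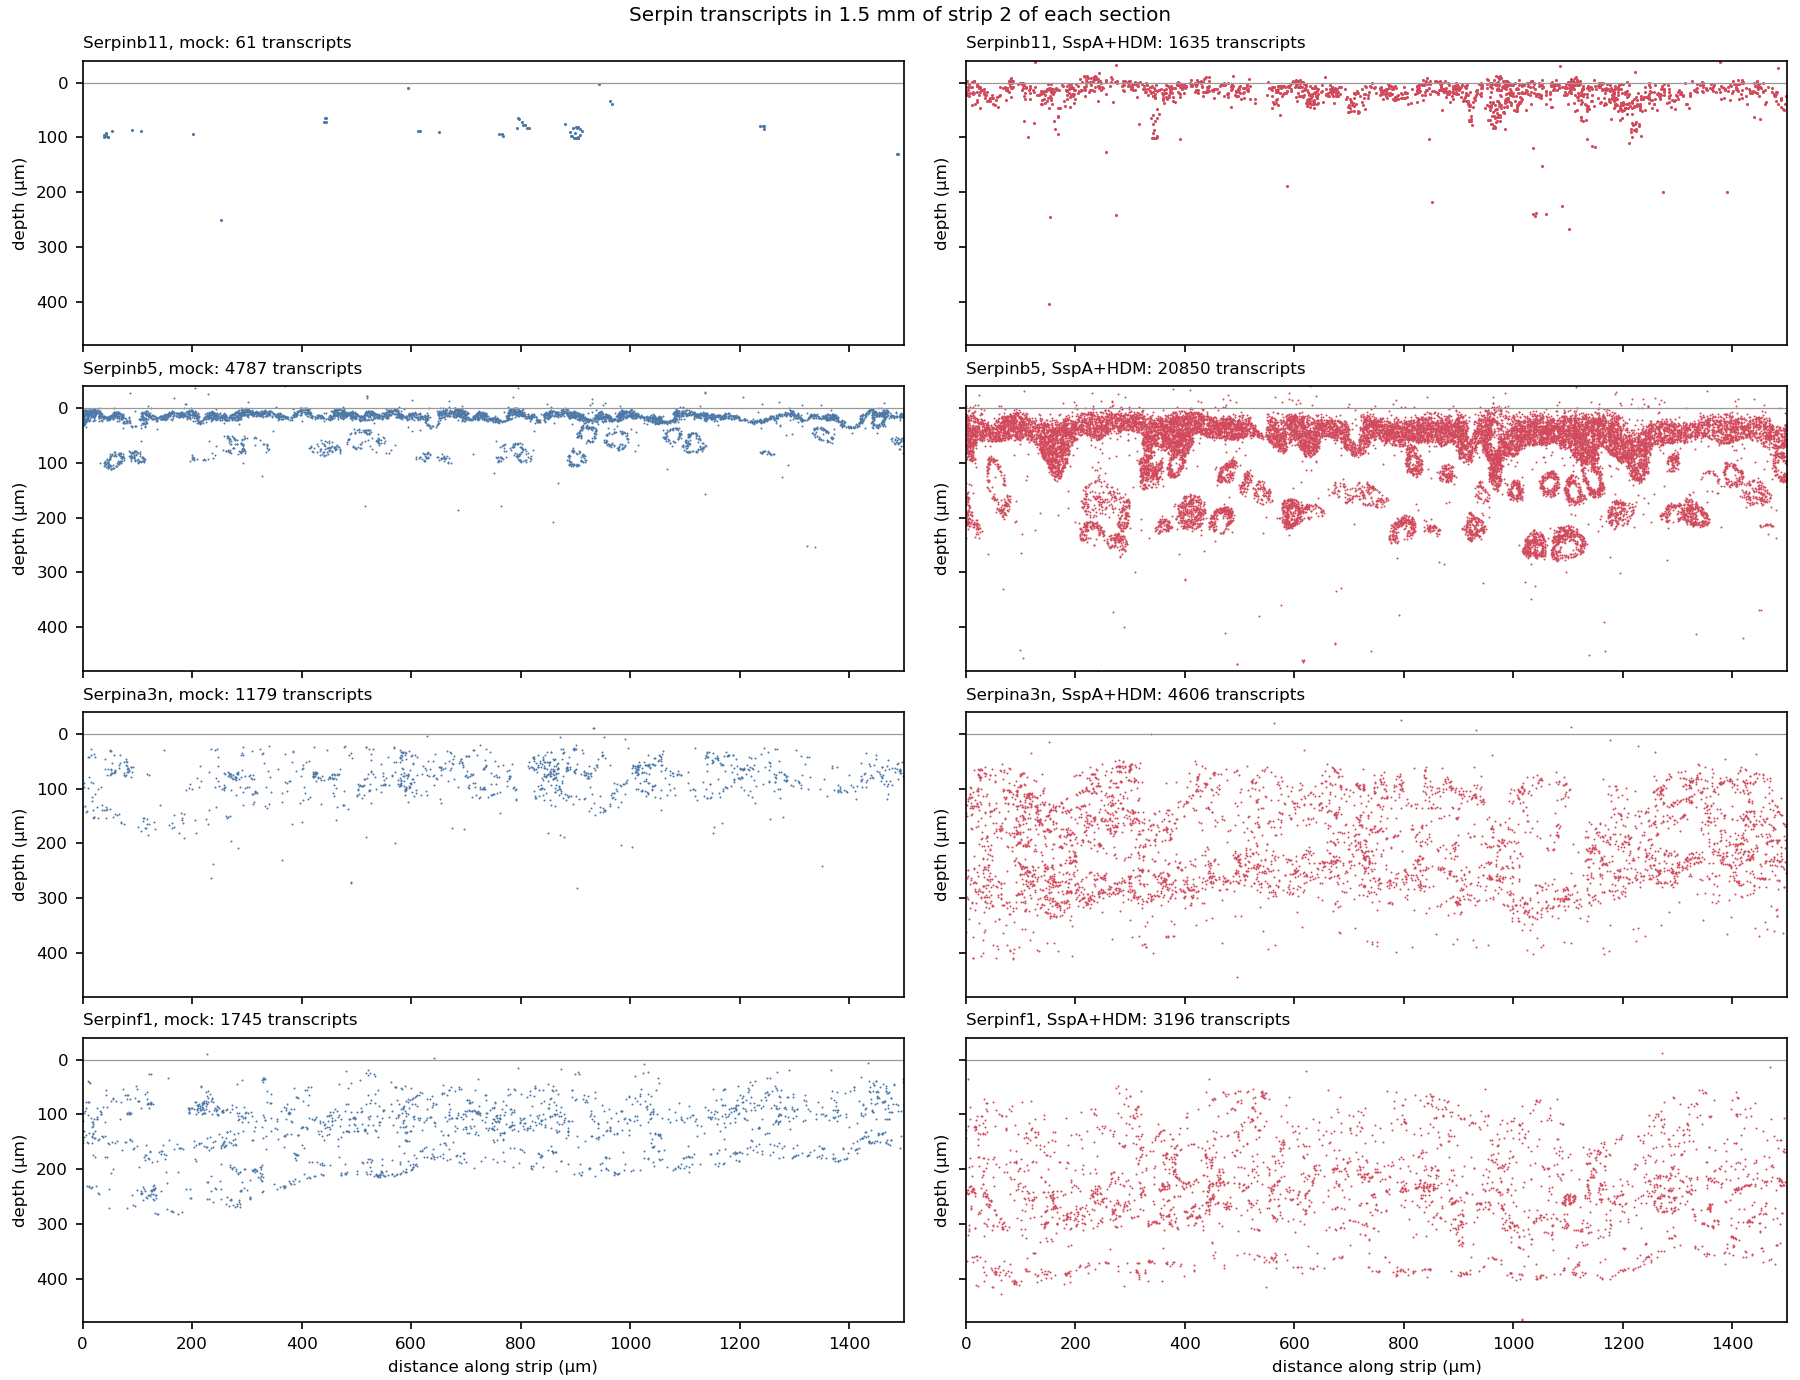
Positions of serpin transcripts over 1.5 mm of strip 2, with mock at left, SspA+HDM at right and a row for each gene; both axes are in µm and each point is 1 transcript. Serpinb11 has 61 transcripts in small deep groups in the mock stretch and 1635, most in a line at the surface, in the SspA+HDM stretch, while Serpinb5 fills the epidermis and rings the follicles in both.

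Over whole sections, levels were expressed as CPM, the count per 1000000 panel transcripts within outlines. Serpinb11 measured 387 and 471 CPM in the mock strips and 1824 and 1829 CPM in the SspA+HDM strips. The SspA+HDM section was 4.24-fold higher (3.98 to 4.53), which ranked 22 of the 346 genes with at least 100 transcripts in either section. Serpina3n measured 3979 and 4354 CPM against 5242 and 5476 CPM, a ratio of 1.29 (1.26 to 1.32), and Serpinb5 21867 and 20745 CPM against 24558 and 23006 CPM, a ratio of 1.11 (1.10 to 1.13). Serpinf1 was the member with a lower level: 5107 and 5411 CPM in the mock strips against 3403 and 3734 CPM, 1.47-fold lower (1.44 to 1.501). For each gene the strips of one section lay apart from those of the other, which gives no measure of the spread between animals. With a fold of at least 2 as the call, 1 of the 4 members was higher and 0 were lower, beside 14.7% and 12.7% of all genes; the median log2 ratio over all genes was 0.05.

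These section-wide ratios mix cell makeup with the level per cell, and by themselves they do not tell fewer cells of a type from less RNA per cell. Keratinocyte-like cells carried 28.5% of panel transcripts in the mock section and 49.5% in the SspA+HDM section, while skeletal muscle-like cells carried 27.8% and 15.3%. Giving each cell class the same weight in both sections left a log2 ratio of 1.97 for Serpinb11, 0.60 for Serpina3n, -0.12 for Serpinf1 and -0.44 for Serpinb5, whose direction turned. Per mm of strip, all 4 genes were higher in the SspA+HDM section: Serpinb11 72.0 to 917 transcripts per mm, Serpinb5 3555 to 11896, Serpina3n 698 to 2695 and Serpinf1 880 to 1799. A rise per mm was not particular to them, since 264 panel genes were at least 2-fold higher on this scale and 5 at least 2-fold lower.

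**Figure D2:**
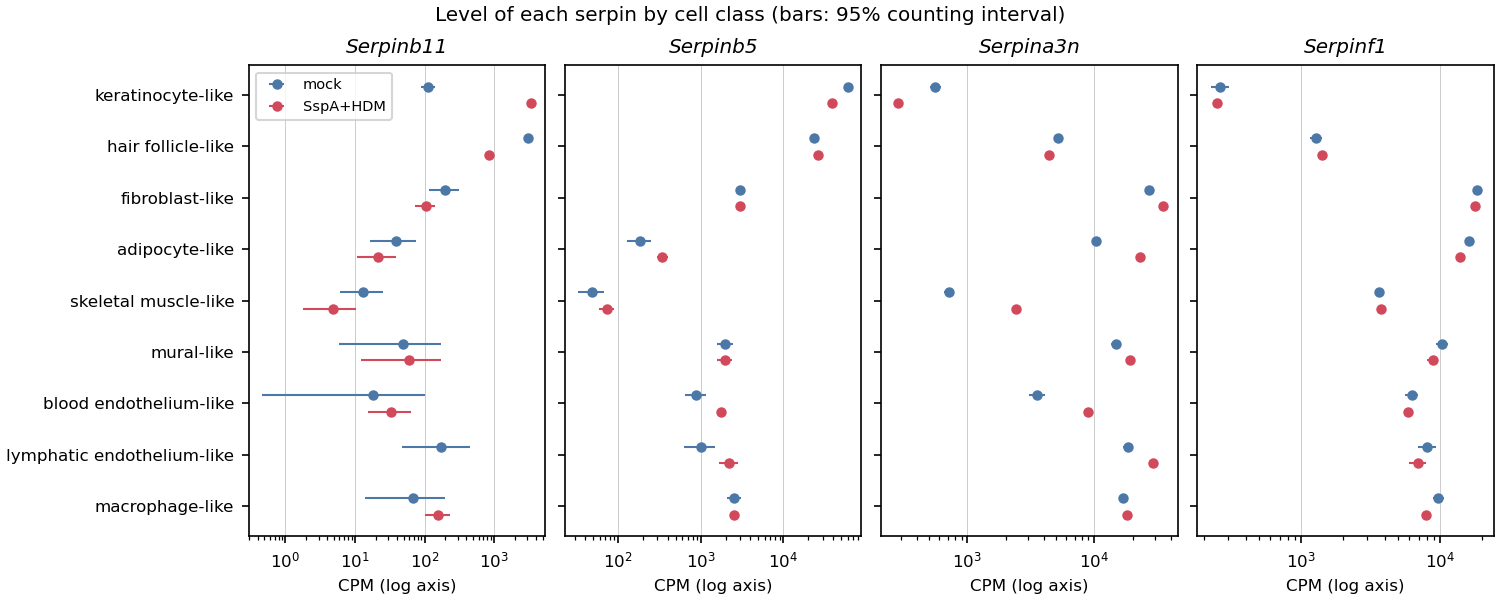
Level of each serpin in each cell class (CPM on a log axis), with a point for each section and bars for the 95% counting interval; a level of 0 (Serpinb11 in SspA+HDM lymphatic endothelium-like cells) has no point. Serpinb11 is 30.3-fold higher in SspA+HDM keratinocyte-like cells and 3.71-fold lower in hair follicle-like cells, and Serpina3n is 2.21-fold, 2.52-fold and 3.35-fold higher in the adipocyte-like, blood endothelium-like and skeletal muscle-like classes.

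Serpinb11, in the mock section, was a gene of small spots in hair follicles. One hair follicle-like cluster, cluster 16, led by the follicle transcription factors Lhx2 and Tbx1 and by Krt13, held 822 transcripts, 80.8% of the section's Serpinb11. At least 1 Serpinb11 transcript was found in 34.8% of its 1302 cells, with up to 9 in a cell. The remaining mock epidermis had little: cluster 5, the main mock keratinocyte-like cluster, led by the cornified-envelope genes Lce1m, Ivl and Lor, held 31 transcripts in 3193 cells, with 0.846% of cells positive and 51.7 CPM. Skeletal muscle-like cells, which mark the background, measured 13.2 CPM in the mock section and 4.81 CPM in the SspA+HDM section.

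In the SspA+HDM section Serpinb11 was mainly a gene of the epidermal surface. Clusters 14 and 19, both keratinocyte-like and led by Calm5, Ivl and the cysteine protease inhibitor gene Stfa2l1, together held 11793 transcripts in 3573 cells, 80.4% of the section's Serpinb11. Cluster 14 measured 9437 CPM with 83.6% of its 2144 cells positive and up to 30 transcripts in a cell, and cluster 19 measured 5246 CPM with 78.03% of 1429 cells positive. The mock section had 4 cells in cluster 14 and 1 in cluster 19, so these levels have no mock counterpart.

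As classes, keratinocyte-like cells measured 108 and 117 CPM in the mock strips and 3337 and 3481 CPM in the SspA+HDM strips. That is 30.3-fold higher (24.3 to 38.3), from 79 and 13732 transcripts, where 13.1% of the genes measured in this class were at least 2-fold higher. Different clusters held the class: cluster 5 had 3193 of its 4204 mock cells, and clusters 3, 9, 10, 11, 14 and 19 had nearly all of its 15855 SspA+HDM cells. Restricted, after seeing the data, to clusters with at least 50 cells in both sections, the log2 ratio was 0.08 in place of 4.92. Of those shared clusters, cluster 10, led by Ivl and Calm5, measured 61.6 CPM from 3 transcripts and 1501 CPM from 658 transcripts, a ratio of 24.4 (8.31 to 119). Cluster 11, led by Sostdc1 and Col17a1, ran the other way, with 1096 CPM in the mock section, from 44 transcripts in 21 positive cells, and 60.02 CPM in the SspA+HDM section. The hair follicle markers Sox9 and Krt79 were also among its leading genes, so it may hold follicle cells. It supplied 44 of the 79 mock transcripts of the keratinocyte-like class.

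Hair follicle-like cells measured 2787 and 3382 CPM against 953 and 736 CPM, 3.71-fold lower (3.33 to 4.14) in the SspA+HDM section, where 15.6% of genes in this class were at least 2-fold lower and 13.9% at least 2-fold higher. The cluster that carries Serpinb11 was smaller there: cluster 16 had 483 cells, and cluster 13, with 2293 cells, measured 246 CPM. Within cluster 16 the level was 7951 CPM and 8574 CPM, a ratio of 1.08 (0.960 to 1.21), and 34.8% and 36.2% of its cells were positive. With each cell thinned to 50 transcripts, the share of positive cells went from 0.410% to 8.96% among keratinocyte-like cells (1.24% and 26.0% unthinned) and from 12.9% to 2.89% among hair follicle-like cells. Of thinned skeletal muscle-like cells, 0 of 1959 and 0 of 3890 had a transcript, which allows shares with a transcript at that depth of up to 0.188% and 0.0948%; unthinned, 0.345% and 0.151% did.

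Depth below the skin surface also set the sections apart. The median Serpinb11 transcript lay 84.7 and 89.1 µm deep in the mock strips and 19.8 and 19.7 µm deep in the SspA+HDM strips. In the mock section 68.9% of Serpinb11 lay 80 to 160 µm deep, and in the SspA+HDM section 42.4% lay within the top 20 µm. The epithelial level in the SspA+HDM section declined with each layer, from 7795 CPM at 0 to 20 µm through 3744, 1696, 1031 and 535 CPM to 275 CPM beyond 320 µm. In the mock section it was 41.5 and 49.0 CPM in the layers shallower than 40 µm, 1173 CPM at 40 to 80 µm and 3635 CPM at 80 to 160 µm. Distance from the non-epithelial tissue showed a like gradient within the treated epidermis: keratinocyte-like cells under 10 µm from it measured 78.03 CPM and those at least 80 µm from it 11521 CPM.

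**Figure D3:**
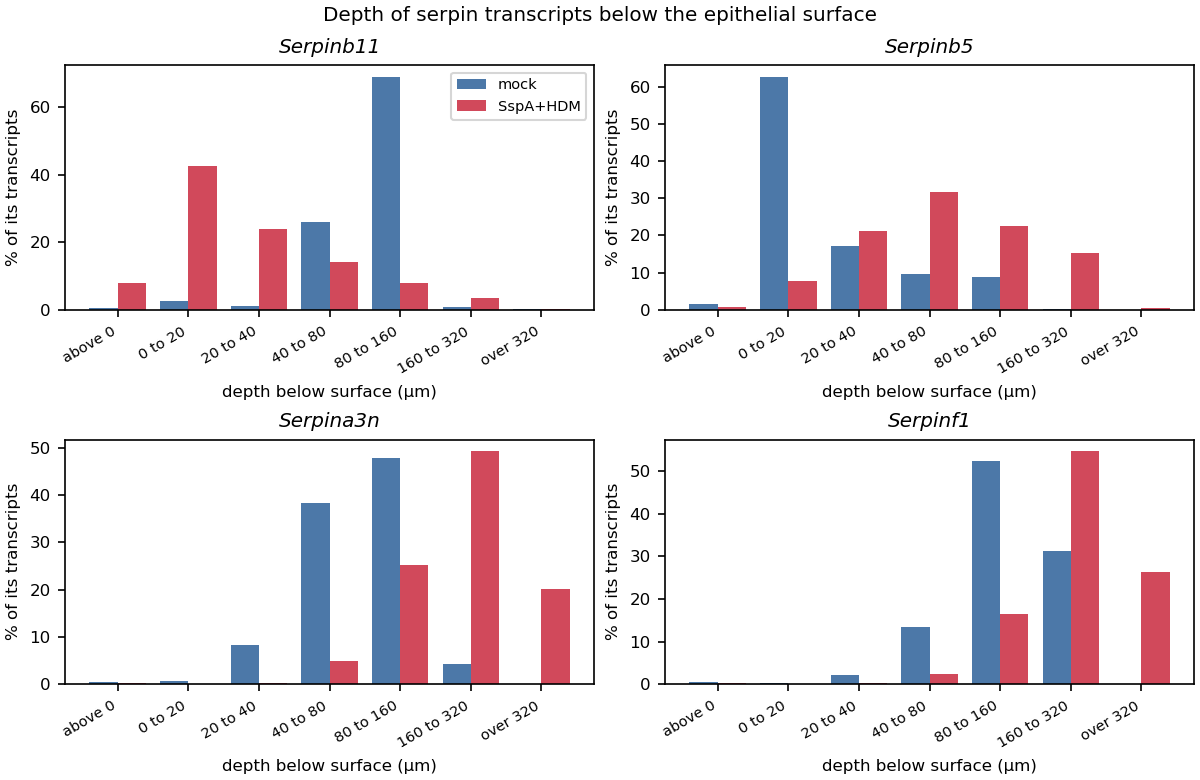
Share of each serpin's transcripts by depth below the skin surface (percent, bars from 0; depth in µm) in each section. Serpinb11 has 68.9% at 80 to 160 µm in the mock section and 42.4% at 0 to 20 µm in the SspA+HDM section; Serpinb5 has 62.7% at 0 to 20 µm in the mock section and 31.8% at 40 to 80 µm in the SspA+HDM section.

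Deep Serpinb11 transcripts were gathered in both sections, but in different cells. Groups of at least 8 transcripts linked within 15 µm, at least 40 µm deep, numbered 18 and 23 in the mock strips, or 2.61 and 3.28 per mm, and held 70.0% and 79.6% of the deep transcripts. Of the grouped transcripts, 90.0% and 93.4% lay in cluster 16 cells. The SspA+HDM strips had 38 groups each, which held 73.2% and 77.8% of the deep transcripts, and 18.8% and 13.0% of their transcripts lay in cluster 16. The largest group held 28 and 37 transcripts in the mock strips and 213 and 322 in the SspA+HDM strips. The 40-µm limit was the same in both sections and need not mark the same tissue layer. The median epithelial cell lay 35.2 and 44.0 µm deep in the mock strips and 95.2 and 97.7 µm deep in the SspA+HDM strips.

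The share of the signal over a nucleus also differed between the sections, which held Serpinb11 in different clusters. Of Serpinb11 transcripts, 58.8% overlapped a nucleus in the mock section and 36.5% in the SspA+HDM section. The share was 61.7% and 55.6% in cluster 16, and 32.9% in cluster 14 and 37.8% in cluster 19 of the SspA+HDM section. Serpinb5 in the same surface clusters overlapped a nucleus in 16.6% (cluster 14) and 25.2% (cluster 19), against 38.1% and 39.2% over whole sections. In cluster 16 the Serpinb5 share was 56.9% and 53.05% (mock and SspA+HDM), so a high nuclear share there was not particular to Serpinb11.

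Serpinb5 marked epidermis and follicle in both sections. Keratinocyte-like cells held 83.8% and 83.4% of its transcripts and hair follicle-like cells 12.8% and 9.16%. Keratinocyte-like cells measured 61637 and 58429 CPM in the mock strips and 40312 and 38374 CPM in the SspA+HDM strips, 1.53-fold lower (1.51 to 1.54). The number of Serpinb5 transcripts per keratinocyte-like cell was 10.01 and 9.957, and the median log2 ratio of all genes in this class was -0.53 against -0.61 for Serpinb5. In the clusters with at least 50 cells in both sections the direction turned, to a log2 ratio of 0.29. Hair follicle-like cells measured 23331 and 26306 CPM, a ratio of 1.13 (1.10 to 1.16).

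In the outermost SspA+HDM cluster, where Serpinb11 was highest, Serpinb5 was low. Clusters 3 and 9 measured 52783 and 51631 CPM of Serpinb5 in that section, cluster 19 measured 39795 CPM and the outermost, cluster 14, 10065 CPM. Counted per cell, the values were 16.6 in cluster 9, 16.8 in cluster 19 and 4.30 in cluster 14. The epithelial level was 20814 CPM at 0 to 20 µm, 43174 CPM at 20 to 40 µm and 49280 CPM at 40 to 80 µm. In the mock section it was highest at the surface, with 64725 CPM at 0 to 20 µm and 60448 CPM at 20 to 40 µm. The median Serpinb5 transcript lay 15.8 µm deep in the mock section and 60.5 µm deep in the SspA+HDM section. The epithelial genes Trim29, Dsc3 and S100a14 lay deeper there too, with medians of 21.27 and 82.55 µm, 17.0 and 73.8 µm, and 28.8 and 83.0 µm. Most cells with Serpinb11 also had Serpinb5: 95.7% (44 of 46) and 93.4% of Serpinb11-positive keratinocyte-like cells, and 93.5% and 94.7% of hair follicle-like ones. Among all cells of these classes with at least 50 transcripts, 97.9% and 96.4% of keratinocyte-like and 88.9% and 91.4% of hair follicle-like cells had Serpinb5.

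Outside the epithelium Serpinb5 was lower in each successive layer up to 120 µm away. Non-epithelial cells within 15 µm of an epithelial cell measured 3442 and 5000 CPM, those at 15 to 30 µm 892 and 1548 CPM, those at 30 to 60 µm 151 and 602 CPM, and those at 60 to 120 µm 57.6 and 100.7 CPM. Blood endothelium-like cells measured 886 and 1745 CPM, a ratio of 1.97 (1.46 to 2.71). All 48 mock transcripts of the class lay in the cells within 30 µm of an epithelial cell, and in those cells the level was 2589 and 2994 CPM, a ratio of 1.16 (0.857 to 1.59), which does not separate the sections.

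**Figure D4:**
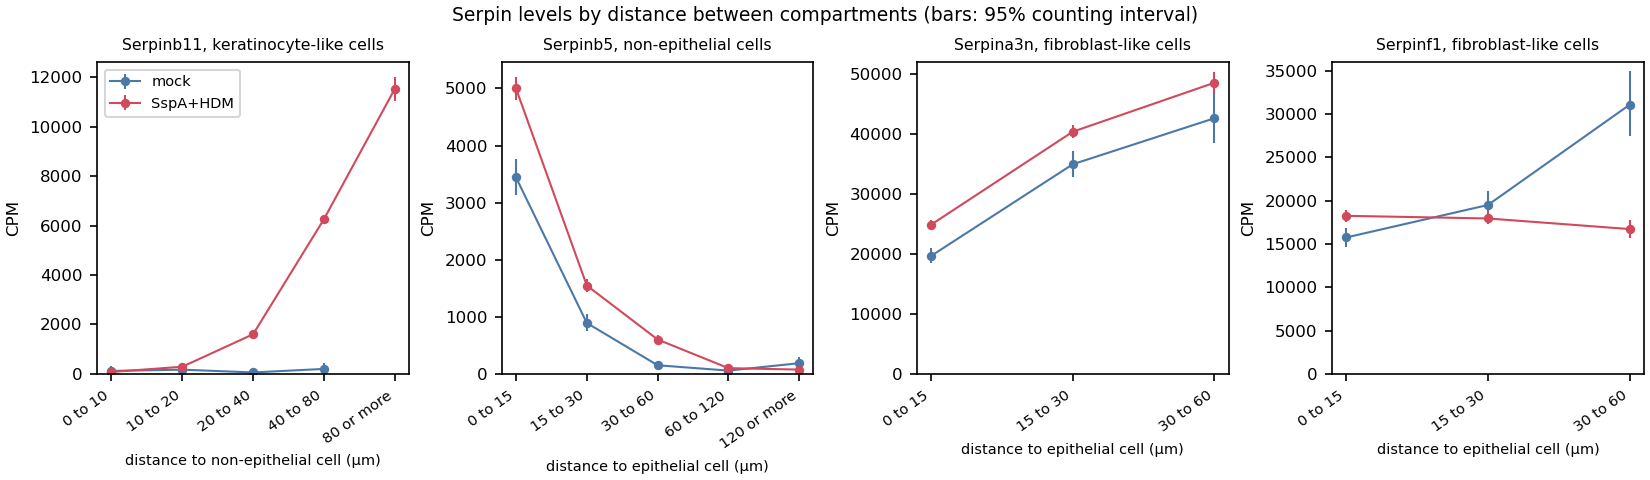
Level of each serpin (CPM, linear axis) against distance to the nearest cell of the other compartment (µm), in keratinocyte-like (Serpinb11), non-epithelial (Serpinb5) and fibroblast-like cells (Serpina3n and Serpinf1), with a line for each section and bars for the 95% counting interval. Serpinb5 in non-epithelial cells declines from 3442 and 5000 CPM next to the epithelium, while Serpina3n in fibroblast-like cells is higher away from it.

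Serpina3n was highest in fibroblast-like cells, with 27152 and 27067 CPM in the mock strips and 35499 and 34246 CPM in the SspA+HDM strips, a ratio of 1.29 (1.23 to 1.34). Its higher level in the SspA+HDM section was larger in other classes. Adipocyte-like cells measured 9458 and 10985 CPM against 21881 and 23353 CPM, 2.21-fold higher (2.11 to 2.32). Blood endothelium-like cells measured 3769 and 3356 CPM against 9163 and 8766 CPM, 2.52-fold higher (2.18 to 2.94). Skeletal muscle-like cells measured 670 and 763 CPM against 2171 and 2596 CPM, 3.35-fold higher (3.05 to 3.70). In these classes the strips of one section did not overlap those of the other, though strips are not replicates. The shares of all genes at least 2-fold higher were 18.8% (adipocyte-like), 19.1% (blood endothelium-like) and 19.9% (skeletal muscle-like). These calls were lost under some settings. In blood endothelium-like cells the log2 ratio of 1.33 was 0.53 with no quality filter, 0.67 and 0.80 at Leiden resolutions of 0.5 and 2, and 0.66 in cells with at least 40 transcripts. From nuclear transcripts alone it was 0.72 in adipocyte-like cells (1.14 as reported) and 0.97 in skeletal muscle-like cells (1.75 as reported).

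The remaining stromal classes had smaller ratios of Serpina3n: 1.57 (1.40 to 1.78) in lymphatic endothelium-like cells, 1.30 (1.18 to 1.44) in mural-like cells and 1.08 (0.994 to 1.17) in macrophage-like cells. None of these, nor fibroblast-like cells, reached a fold of 2, beside 6.06%, 10.1%, 22.9% and 20.2% of genes that did (lymphatic, mural, macrophage and fibroblast-like). The log2 ratio in fibroblast-like cells, 0.36, was 0.89 with no quality filter and reached 1.09 with a quality minimum of 30, and that in lymphatic endothelium-like cells, 0.66, reached 1.15 from nuclear transcripts.

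Fibroblast-like cells lie among these classes and could lend them transcripts, so the values were also taken, after seeing the data, in cells over 30 µm from the nearest fibroblast-like cell. In those cells Serpina3n measured 8166 and 22228 CPM in adipocyte-like cells (2.72-fold), 1704 and 7311 CPM in blood endothelium-like cells (4.29-fold) and 690 and 2352 CPM in skeletal muscle-like cells (3.41-fold). Only cluster 1 counted as fibroblast-like here. Lending by other neighbours was not tested, such as adipocyte-like cells or unnamed cluster 21, which measured 985 and 3305 CPM. Within 30 µm of a fibroblast-like cell the ratios were smaller and below a fold of 2: 12779 and 24375 CPM in adipocyte-like cells (1.91-fold, 1.79 to 2.04) and 6793 and 9906 CPM in blood endothelium-like cells (1.46-fold, 1.22 to 1.75), which were 1892 of the 2634 SspA+HDM cells of that class. Within 30 µm of the epithelium the ratio in blood endothelium-like cells was 1.32 (1.10 to 1.59). Over 30 µm from the epithelium the log2 ratios were 1.30, 2.31 and 1.81 for these classes, in the same order. Macrophage-like cells over 30 µm from a fibroblast-like cell turned the other way, with 13438 CPM in 54 cells and 6433 CPM in 214 cells. With each cell thinned to 50 transcripts, the share of cells with Serpina3n was 38.9% and 61.1% (adipocyte-like), 16.5% and 30.1% (blood endothelium-like), and 3.62% and 11.2% (skeletal muscle-like).

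In the named epithelial classes the summed Serpina3n level was lower in the SspA+HDM section. Keratinocyte-like cells measured 559 and 284 CPM, 1.97-fold lower (1.75 to 2.21), though log2 -0.98 became -0.10 from nuclear transcripts alone. Hair follicle-like cells measured 5152 and 4378 CPM, 1.18-fold lower (1.10 to 1.26). Cluster 13 had 51 and 2293 of the latter cells, and no cluster of that class had an interval wholly below 1: the ratio was 0.935 (0.873 to 1.001) in cluster 6, 1.32 (0.511 to 4.88) in cluster 13 and 1.41 (1.09 to 1.83) in cluster 16. The unnamed epithelial cluster 23 had a ratio of 1.20 (1.05 to 1.37). Cluster 6, a hair follicle-like cluster led by Ly6g6c and Krt79, held 1276 and 2449 Serpina3n transcripts, at 7591 and 7096 CPM. At least 20 µm from non-epithelial cells cluster 6 still measured 5597 and 5679 CPM, whereas keratinocyte-like cells went from 1113 and 1682 CPM beside that tissue to 134 and 59.8 CPM at 40 to 80 µm. Within the fibroblast-like class the level was lower within 15 µm of the epithelium, at 19697 and 24913 CPM, than 30 to 60 µm away, at 42678 and 48603 CPM.

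Serpinf1 differed less by class, with ratios from 0.810 to 1.10 over the 9 named classes, although its whole-section level was lower. Fibroblast-like cells measured 18550 and 17867 CPM (ratio 0.963, 0.913 to 1.02), adipocyte-like cells 16056 and 13824 CPM (0.861, 0.826 to 0.897), skeletal muscle-like cells 3645 and 3787 CPM (1.04, 0.990 to 1.09) and blood endothelium-like cells 6272 and 5909 CPM (0.942). Both skeletal muscle-like clusters were lower in the SspA+HDM section, cluster 4 with a ratio of 0.899 (0.852 to 0.948) and cluster 12 with 0.705 (0.619 to 0.803); cluster 4, the one with more Serpinf1, made up 985 of the 2030 cells of this class under mock and 2391 of 3987 under SspA+HDM. The lowest ratio among named classes was that of macrophage-like cells, 9714 and 7863 CPM, 1.24-fold lower (1.11 to 1.38).

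Both secreted serpins lay deeper in the SspA+HDM section: the median Serpinf1 transcript was at 126 and 242 µm and the median Serpina3n transcript at 81.8 and 214 µm (mock and SspA+HDM). The shift was not particular to them. The connective tissue genes Lum, Bgn and Pi16 had medians of 89.4 and 185 µm, 94.4 and 221 µm, and 149.5 and 298 µm. Single clusters differed more than the classes. Hair follicle-like cluster 16 measured 1412 and 754 CPM of Serpinf1, 1.87-fold lower (1.32 to 2.72), and keratinocyte-like cluster 11 1919 and 2731 CPM, a ratio of 1.42 (1.12 to 1.82). Unnamed cluster 21, led by Retnla, C3, Igfbp6 and Pi16, measured 26414 CPM in 792 mock cells and 16740 CPM in 328 SspA+HDM cells, 1.58-fold lower (1.44 to 1.74). Cluster 21 held 17.6% of mock Serpinf1 and 1.90% of SspA+HDM Serpinf1. Cluster 17, led by Wif1, Acan and Sox2, measured 22807 CPM in 1543 SspA+HDM cells, held 9.61% of that section's Serpinf1 and had 41 cells in the mock section. Over 30 µm from the epithelium, Serpinf1 in fibroblast-like cells was 30669 CPM in 135 mock cells and 16744 CPM in 756 SspA+HDM cells, a ratio of 0.546, whereas within 15 µm of the epithelium it was 15742 and 18238 CPM.

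The level along the strips was followed in windows of 500 µm. Epithelial Serpinb11 ranged from 0 to 2141 CPM over 28 mock windows (median 748) and from 1453 to 4309 CPM over 30 SspA+HDM windows (median 2495). In the SspA+HDM section the median was 2048 and 2193 CPM before the middle of the strips and 3349 and 3313 CPM after it. In the mock section it was 957 and 1215 CPM before the middle and 355 and 668 CPM after it. Non-epithelial Serpina3n in the SspA+HDM section had medians of 8242 and 9261 CPM before and 15036 and 14156 CPM after the middle, although the highest window, at 23855 CPM, was at the near end of strip 1. Over all SspA+HDM windows it ranged from 3261 CPM upward (median 11611), and over mock windows from 3346 to 10925 CPM (median 5200). Epithelial Serpinb5 varied less, from 40125 to 54355 CPM in mock windows and 31187 to 41798 CPM in SspA+HDM windows. Non-epithelial Serpinf1 overlapped, with 3673 to 11041 CPM (median 9179) and 4701 to 13774 CPM (median 8740). The strips of a section ran alike along their length, so a window in one is no independent check of the other.

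**Figure D5:**
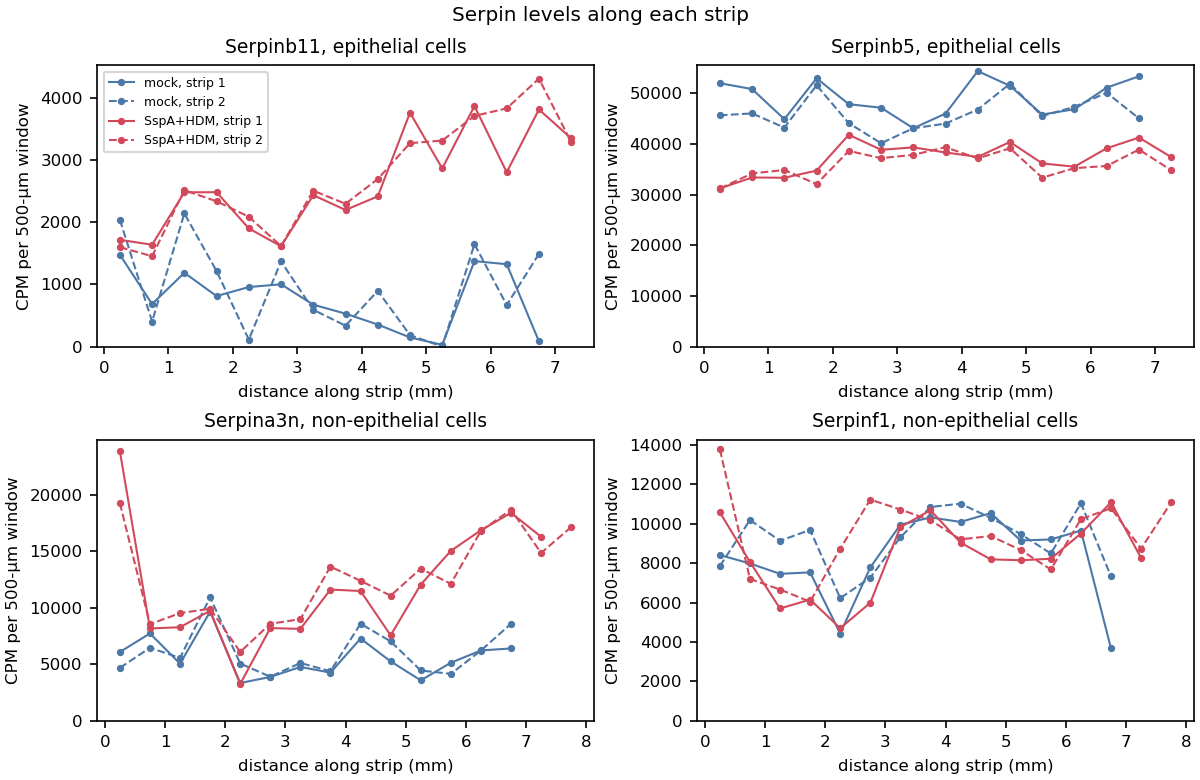
Level of each serpin (CPM) in 500-µm windows along the strips (position in mm), epithelial cells for Serpinb11 and Serpinb5 and non-epithelial cells for Serpina3n and Serpinf1, with a line for each strip. The medians of Serpinb11 and Serpina3n are higher after the middle of both SspA+HDM strips, and Serpinb5 is lower in the SspA+HDM windows.

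Other genes of the pathway were taken from lists. The counts below stand beside 14.7% of all genes higher and 12.7% lower, and nothing particular to a list is read from them. Of 5 further protease inhibitors on the panel, 2 were at least 2-fold higher in the SspA+HDM section and 1 lower, with a median log2 ratio of 0.11 beside 0.05 for all genes. The cystatin-family genes Stfa2l1 and Cstdc4 measured 43.0 and 9510 CPM (221-fold, 182 to 272) and 147 and 13218 CPM (89.9-fold, 80.8 to 100.2). Serpina10, the remaining serpin of the panel, had 40 and 147 transcripts and a ratio of 1.08 (0.755 to 1.57). The metalloprotease inhibitors Timp3 and Timp4 were 1.71-fold and 2.26-fold lower. Of 3 serine proteases, 2 had at least 100 transcripts and neither reached a fold of 2: Prss23 was 1.91-fold lower and Prss3 1.28-fold lower. Of 4 acute-phase genes, 1 was called, the haem carrier Hpx at 3.28-fold higher; haptoglobin (Hp) was 1.65-fold higher, Cp 1.35-fold lower and the complement gene C3 1.61-fold lower. Of 3 vessel genes, Vwf was 2.04-fold and Plvap 1.46-fold higher and Kdr, the main VEGF receptor, 1.12-fold lower. Capns2, a calpain subunit gene, had a ratio of 1.01.

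The genes whose log2 level was most like each serpin over 22 points, the cell classes of both sections, were found by Pearson correlation, as a description over points that share libraries. For Serpinb11 they were the glucose transporter gene Slc5a1 (0.805), the aquaporin gene Aqp3 (0.746) and Capns2 (0.704). For Serpinb5 they were Dsc3 (0.983), Col17a1 (0.969) and Fxyd3 (0.964), of which the first encodes a desmosomal cadherin and the next a hemidesmosome collagen. For Serpina3n they were the matrix genes Mfap4 (0.893), Bgn (0.807) and Lum (0.802), and for Serpinf1 they were Dpt (0.980), Ccdc80 (0.975) and Htra3 (0.966). Serpina3n and Serpinf1 correlated at 0.725.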

How the data were processed

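Transcript and cell-outline tables of 1 mock and 1 SspA+HDM section were used. Per the file headers, the deposited transcript tables give each decoded transcript a position, a nucleus flag and a quality score; the decoding software, segmentation software and build: not given in the sources used here. Positions were taken as µm. Transcripts with a score of at least 20 were summed per outline, and cells with at least 20 transcripts were clustered (30 principal components, 15 neighbours, Leiden resolution 1) on 375 genes without the 4 serpins described. The strips, the surface (the 2nd percentile of epithelial cells in 50-µm bins) and all distances come from positions. CPM is the count per 1000000 panel transcripts in outlines. Ratios have exact conditional binomial intervals, levels exact Poisson intervals and shares exact Clopper-Pearson intervals, at 95%; depth limits them, and they cover counting error only. The interval was tested on simulated counts. A gene counted as called at a fold of 2 with at least 100 transcripts in either section.

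All 4 members are named, with the 3 most similar panel genes each (Pearson, log2 of CPM plus 50 over cell classes) and, per list of related genes, up to 2 of the highest and 2 of the lowest ratios. Clusters and their leading genes, and Capns2, are named to describe where the serpins lie. The members and lists were chosen with earlier results of these data known. Sequences are from RefSeq (GRCm38.p6), where all 4 genes matched. Tools were Python 3.11.15, numpy 2.4.6, pandas 2.3.3, scipy 1.17.1, scikit-learn 1.9.0, igraph 0.11.9, leidenalg 0.10.2 and matplotlib 3.10.9.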

Additional observations from a re-analysis of the deposited data

Results flagged for a closer look

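The summed Serpinb11 level differed in opposite directions in the epithelial classes. The log2 ratio of SspA+HDM over mock was 4.92 in keratinocyte-like and -1.89 in hair follicle-like cells, a gap of 6.82. Both strips of each section lay on the same side, though strips are not replicates. The difference was not tested, having 1 sample per treatment, and different clusters hold these classes in each section. Within hair follicle-like cluster 16 the ratio was 1.08 (0.960 to 1.21). In keratinocyte-like clusters with at least 50 cells in both sections, pooled, the log2 ratio was 0.08. Among them, cluster 10 had a ratio of 24.4 (8.31 to 119), and cluster 11 ran the other way, with 1096 and 60.02 CPM. Serpinb5 had a log2 ratio of 0.98 in blood endothelium-like and -0.61 in keratinocyte-like cells, a gap of 1.59, also not tested; in the blood endothelium-like cells within 30 µm of an epithelial cell, which hold all 48 mock transcripts, the ratio was 1.16 (0.857 to 1.59), and the class log2 ratio was as low as 0.35 under another clustering. Serpina3n had a log2 ratio of 1.75 in skeletal muscle-like and -0.98 in keratinocyte-like cells, a gap of 2.72, also not tested. From nuclear transcripts alone these log2 ratios were 0.97 and -0.10. The typical gene shifted the same way, with class medians of 0.31 in skeletal muscle-like and -0.53 in keratinocyte-like cells. Keratinocyte-like cells under 10 µm from non-epithelial cells had a Serpina3n ratio of 1.51 (1.08 to 2.18). At 10 to 20 µm the ratio was 0.79 (0.68 to 0.91), and at 20 µm or more 0.29 (0.23 to 0.37).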

How the results depend on the processing

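Values are log2 ratios over whole sections, with 2.08 (Serpinb11), 0.16 (Serpinb5), 0.36 (Serpina3n) and -0.56 (Serpinf1) as reported, and 51 genes higher and 44 lower. Without a quality filter Serpinb5 was 0.26 and Serpina3n 0.26. From nuclear transcripts alone Serpinb11 was 1.11, Serpina3n 0.091 and Serpinb5 turned to -0.091. With transcripts outside outlines Serpinb5 was 0.19. Per cell the values were 2.32, 0.39, 0.60 and -0.32, with 23 genes lower. Per mm they were 3.67, 1.74, 1.95 and 1.03, which turned Serpinf1, with 264 genes higher and 5 lower. Without the 5 most abundant genes Serpinb5 was 0.12, Serpina3n 0.33 and Serpinf1 -0.59. With equal class weights they were 1.97, -0.44 (turned), 0.60 and -0.12, with 26 genes lower. Leaving out each strip gave 1.96 to 2.24, 0.11 to 0.21, 0.30 to 0.43 and -0.63 to -0.50, with 46 to 57 genes higher and 39 to 46 lower. The causes of these shifts were not tested. Of 296 alternative class ratios, 207 stayed within the reported value's counting interval and 88 left it. Among ratios whose interval excludes equal levels, 1 turned: Serpinb5 in keratinocyte-like cells, 0.29 over shared clusters pooled. Ratios near 0 changed sign more often; Serpina3n in macrophage-like cells ran from -1.06 to 0.37. Serpinb11 ran from 0.08 to 6.30 in keratinocyte-like cells and was -2.74 and -2.83 in hair follicle-like cells with a quality minimum of 30 and at resolution 0.5. Resolution 0.5 formed no fibroblast-like class. Calling epithelium cell by cell put 29.7% of SspA+HDM Serpinb11 there, and clusters 14 and 19 carry few of the 3 genes that call uses. All 16 alternative depth medians stayed within 10 µm of those reported. No paired analysis was possible because each treatment has 1 sample.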
